A study of Rattus norvegicus with 6 samples.

Results

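Laminins, nidogens and the heparan sulfate proteoglycans perlecan and agrin are secreted proteins of the basement membrane, the thin matrix sheet around each heart muscle cell and under the endothelium. The 10 genes described here encode 3 laminin alpha chains (Lama2, Lama4, Lama5), 2 beta chains (Lamb1, Lamb2), the gamma chain Lamc1, the nidogens Nid1 and Nid2, perlecan (Hspg2) and agrin (Agrn). They were listed by name, and 9 of them were found by symbol among the 32623 genes deposited. Hspg2 is not listed under that symbol; it was matched through a RefSeq synonym, AABR07073181, to 1 of 2 entries of that name, the other being a microRNA. That entry, ENSRNOG00000021437, lies between Cela3b and Ldlrad2 in the table's annotation as Hspg2 does in RefSeq.

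The series compared primary ventricular myocardial cells of Sprague-Dawley rats (postnatal day 1 to 3) that received a small interfering RNA against Mettl3 (siMETTL3 in the labels, siMettl3 here) with cells that received a control RNA (siNC), 3 libraries each. Both groups had the RNA for 24 h and then bacterial lipopolysaccharide (LPS) for 6 h; libraries without LPS were not analysed here, so the comparison is within LPS. All cells came from 1 isolate pooled from several rats. The p-values therefore measure the spread between these libraries, which may be technical. The question is how lowering Mettl3, the catalytic subunit of the enzyme that writes N6-methyladenosine on messenger RNA, leaves the messages of the basement membrane under LPS.

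A laminin is a trimer of an alpha, a beta and a gamma chain that assembles inside the cell, is secreted and polymerizes on integrins and dystroglycan at the cell surface. Nidogens bind a site on the laminin gamma chain and connect the laminin network with collagen IV and perlecan. In heart and skeletal muscle the Lama2 chain predominates around the muscle fibres, Lama4 and Lama5 are chains of vessel walls, perlecan and agrin carry heparan sulfate chains, and agrin also binds dystroglycan.

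The total count was 72483469 to 74401683 in the siMettl3 libraries and 71202469 to 76668751 in the siNC libraries. Mettl3 had 10.3, 10.6 and 9.90 FPKM (fragments relative to message length and sequencing depth) in siMettl3 cells, against 18.2, 17.2 and 15.3 FPKM in siNC cells. Its mean was 10.3 ± 0.355 FPKM in siMettl3 cells, which is 60.6% of the 16.9 ± 1.47 FPKM in siNC cells (SD, n = 3 each). In counts the log2 fold change was -0.80 ± 0.0790 (SE) with an adjusted p of 0.00293 in edgeR's quasi-likelihood test. Cardiomyocyte markers were abundant, led by Nppa, Actc1 and Tnnt2, and none of the 11 found was at 0 in all libraries. Markers of fibroblasts, smooth muscle cells and macrophages were present too, and their values stand beside the results below.

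Promoters of 3 members are shown because these genes went different ways: Nid1 and Lama4 were lower in siMettl3 cells, and Lama5 was the member with the largest positive fold change. The sequences are RefSeq's for build GRCr8, 250 bases before to 50 after the gene start, read 5′ to 3′ on the gene's strand. They lie at chr17:93069036-93069335 (plus strand) for Nid1, chr20:43946648-43946947 (plus strand) for Lama4 and chr3:187695925-187696224 (minus strand) for Lama5; the deposited table, in its own build, has Nid1 on the minus strand. Capitals mark matches on either strand to the GC box (GGGCGG), the TEAD motif (GGAATG), the TATA motif (TATAAA), the AP-1 motif (TGANTCA), the CArG box or the NF-kB motif, none of which overlap in these 3 promoters.
Nid1: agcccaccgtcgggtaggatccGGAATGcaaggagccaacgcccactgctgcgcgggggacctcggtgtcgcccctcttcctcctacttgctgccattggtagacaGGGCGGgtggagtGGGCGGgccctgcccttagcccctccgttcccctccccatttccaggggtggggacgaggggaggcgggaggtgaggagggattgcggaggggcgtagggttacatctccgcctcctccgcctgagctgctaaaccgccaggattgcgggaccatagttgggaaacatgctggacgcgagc
Lama4: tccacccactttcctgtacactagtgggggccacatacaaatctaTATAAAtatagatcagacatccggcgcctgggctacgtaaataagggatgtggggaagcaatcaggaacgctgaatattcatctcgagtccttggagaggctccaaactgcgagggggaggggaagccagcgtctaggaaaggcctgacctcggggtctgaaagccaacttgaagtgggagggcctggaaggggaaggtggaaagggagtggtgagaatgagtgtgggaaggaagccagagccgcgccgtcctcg
Lama5: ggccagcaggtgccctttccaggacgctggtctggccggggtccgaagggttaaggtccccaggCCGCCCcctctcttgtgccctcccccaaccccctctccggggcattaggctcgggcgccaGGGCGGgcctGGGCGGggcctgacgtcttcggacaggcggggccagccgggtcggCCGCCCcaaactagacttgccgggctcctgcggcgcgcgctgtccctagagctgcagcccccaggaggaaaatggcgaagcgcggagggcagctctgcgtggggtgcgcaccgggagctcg
The Nid1 promoter holds 1 TEAD motif and 2 GC boxes, at a GC content of 66.3%. The Lama4 promoter holds 1 TATA motif and no GC box, at 55.0%. The Lama5 promoter holds 4 GC boxes, at 73.0%. The GC box occurs in 34.9% of the 27457 promoters of the table, the TEAD motif in 13.9% and the TATA motif in 14.3%, and the median GC content is 52.3%. The AP-1 motif (7.33% of promoters), the CArG box (1.64%) and the NF-kB motif (4.16%) have no match in these 3 windows. A match describes letters in a window and is no evidence of binding. Of the 10 members, 8 have an entry; Nid2 and Lamb2 have none.

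Both nidogens and Lama4 were called lower in siMettl3 cells, and no member was called higher. Of the 10 members, 3 passed an adjusted p of 0.05 in the edgeR test as lower and 0 as higher, where 9.98% of all 13105 genes tested passed, 6.59% lower and 3.39% higher. The median log2 fold change was -0.079 over the 10 members and 0.0025 over all genes tested. At an unadjusted p of 0.05, 4 members were lower (Lamb2 was added) and 0 higher, beside 27.6% of all genes, 15.0% lower and 12.5% higher. With limma on log2(FPKM + 1), Nid1 and Nid2 passed and Lama4 did not, so 2 members were lower and 0 higher, beside 10.9% of all genes, 4.4% lower and 6.53% higher. The split of all genes thus depends on the scaling: edgeR, which rescales the libraries, called 864 genes lower and 444 higher, whereas limma on FPKM as deposited called 576 lower and 856 higher. DESeq2 called 4 members lower (Lamb2 was added) and 0 higher, beside 18.3% of all genes, 10.6% lower and 7.71% higher. In bulk RNA, fewer cells of a type and less RNA per cell cannot be told apart.

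**Figure D1:**
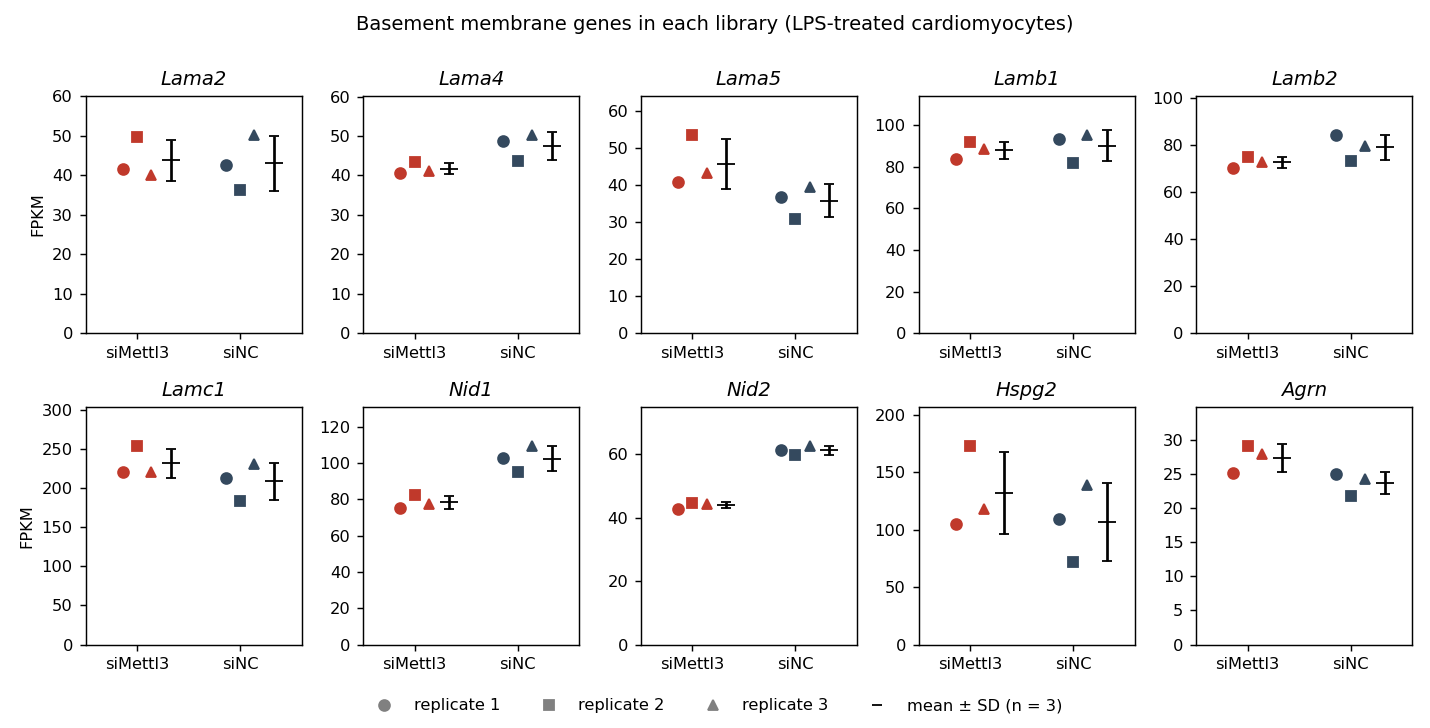
FPKM of the 10 members in each library (points; siMettl3 left of siNC in each pair), with the mean and SD of 3 libraries. The siMettl3 points of Nid1, Nid2 and Lama4 lie below all siNC points, those of Lama5 and Agrn lie above them, and the other 5 members overlap.

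Per length, the members spanned an order from Lamc1 to Agrn. The mean over the 6 libraries was 220.5 FPKM for Lamc1, 119 for Hspg2, 90.4 for Nid1, 88.9 for Lamb1, 75.7 for Lamb2, 52.6 for Nid2, 44.6 for Lama4, 43.4 for Lama2, 40.8 for Lama5 and 25.5 for Agrn. Lamc1 stood above Hspg2, Lamb2 above Nid2 and Lama5 above Agrn without overlap between libraries. The other neighbours in this order overlapped over the 6 libraries. By groups, all 3 siMettl3 libraries lay below all 3 siNC libraries for 3 members (11.5% of all genes tested) and above them for 2 members (26.4% of all genes tested), where 37.9% of all genes did not overlap in either direction.

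The nidogens had the largest fold changes of the 10 members. Nid2, on chromosome 15 at 4894213 to 4951917 (minus strand; coordinates as the table gives them, its build not stated), had 42.9, 44.7 and 44.4 FPKM in siMettl3 cells, against 61.3, 59.9 and 62.5 FPKM in siNC cells. The groups are far apart compared with the spread within each. The mean was 44.0 ± 0.990 FPKM in siMettl3 cells and 61.3 ± 1.3 FPKM in siNC cells (SD, n = 3 each), or 71.8% of the siNC mean. The counts behind it were 14895 to 15607 in siMettl3 cells and 20902 to 22058 in siNC cells. On the log2 scale the fold change was -0.55 ± 0.0471 (SE; edgeR, adjusted p = 0.00251), and limma gave an adjusted p of 0.00538. It passed when any 1 library was left out, with adjusted p-values of 0.00706 to 0.0210 (edgeR).

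Nid1, the more abundant nidogen in these cells, lies on chromosome 17 at 90553394 to 90627101 (minus strand). It had 75.2, 82.4 and 77.6 FPKM in siMettl3 cells, against 103, 95.2 and 109 FPKM in siNC cells. Every siMettl3 library is below every siNC library, and the lowest siNC library is replicate 2. The mean was 78.4 ± 3.71 FPKM in siMettl3 cells and 102 ± 7.0 FPKM in siNC cells (SD, n = 3 each), or 76.6% of the siNC mean, from counts of 32637 to 35986 in siMettl3 cells and 41708 to 46180 in siNC cells. Its log2 fold change was -0.46 ± 0.0673 (SE; edgeR, adjusted p = 0.00983; limma, adjusted p = 0.0215). Without siMettl3 replicate 1 the edgeR adjusted p was 0.0532, and without any other single library Nid1 passed. The share of Nid2 in the summed FPKM of both nidogens was 36.3%, 35.1% and 36.4% in siMettl3 cells and 37.4%, 38.6% and 36.4% in siNC cells. The shares overlap, and the difference in means was -1.52 percentage points (exact permutation test, two-sided, p = 0.2, where 0.1 is the smallest p that 3 against 3 libraries allow).

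Among the alpha chains, Lama4 fell, while Lama2 and Lama5 did not pass the test. Lama4 (chromosome 20, 44060731 to 44209614, plus strand) had 40.6, 43.3 and 41.2 FPKM in siMettl3 cells, against 48.6, 43.6 and 50.2 FPKM in siNC cells. The groups do not overlap, but siNC replicate 2 and siMettl3 replicate 2 nearly meet. The mean was 41.7 ± 1.44 FPKM in siMettl3 cells and 47.5 ± 3.45 FPKM in siNC cells (SD, n = 3 each), or 87.8% of the siNC mean. Its log2 fold change was -0.26 ± 0.0651 (SE; edgeR, adjusted p = 0.0488), close to the threshold. Limma gave an adjusted p of 0.119. When 1 library was left out, the edgeR adjusted p ran between 0.0368 and 0.153, and it passed only without siNC replicate 2. Fam229b, with 44 to 79 counts, overlaps Lama4 on the opposite strand, and whether the counting used strand is not stated in the sources used here.

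Lama2, the alpha chain of muscle fibres whose loss in humans causes a congenital muscular dystrophy, lies on chromosome 1 at 18491384 to 19143269 (plus strand). It had 41.5, 49.8 and 40.1 FPKM in siMettl3 cells, against 42.6, 36.3 and 50.2 FPKM in siNC cells. The groups overlap, with siMettl3 replicate 2 high and siNC replicate 2 low. Its log2 fold change was -0.049 ± 0.131 (SE; edgeR, adjusted p = 0.842), with a 95% interval of -0.30 to 0.21 (normal approximation). On log2(FPKM + 1) it was 0.032 (limma, adjusted p = 0.887).

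Lama5, on chromosome 3 at 175553045 to 175601127 (minus strand), is the longest of the 10 messages. It had 40.7, 53.5 and 43.2 FPKM in siMettl3 cells, against 36.9, 31.0 and 39.5 FPKM in siNC cells. The groups do not overlap, although the lowest siMettl3 library and the highest siNC library are close. The mean was 45.8 ± 6.77 FPKM in siMettl3 cells and 35.8 ± 4.38 FPKM in siNC cells (SD, n = 3 each). Its log2 fold change of 0.28 ± 0.125 (SE) did not pass (edgeR, adjusted p = 0.199; limma, adjusted p = 0.119).

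The make-up of the alpha chains was compared as shares of their summed FPKM, which do not depend on how a library is scaled. Shares can still move with gene length, which was 6.12 kb for Lama4, 9.76 kb for Lama2 and 11.6 kb for Lama5. The libraries differed by gene length, as described below, and the part of this in the shares was not tested. Lama4 took 33.0%, 29.6% and 33.1% of that sum in siMettl3 cells, against 37.9%, 39.3% and 35.9% in siNC cells. Lama5 took 33.2%, 36.5% and 34.7% in siMettl3 cells, against 28.8%, 27.9% and 28.3% in siNC cells. Neither share overlaps between the groups.

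The mean Lama4 share was 31.9 ± 2.03% in siMettl3 cells and 37.7 ± 1.73% in siNC cells, a difference of -5.83 percentage points (SD, n = 3 each; exact permutation test, two-sided, p = 0.1, the smallest possible). For Lama5 the mean was 34.8 ± 1.66% in siMettl3 cells and 28.3 ± 0.430% in siNC cells, a difference of 6.44 points (SD, n = 3 each; exact permutation test, p = 0.1). Adjusted over the 6 shares tested, both p-values were 0.3 (exact permutation tests), so this design cannot bring them past 0.05. Leaving out 1 library at a time gave differences of -6.75 to -4.66 points for Lama4 and 5.58 to 7.24 points for Lama5. The Lama2 share had means of 33.3% in siMettl3 cells and 33.9% in siNC cells (exact permutation test, p = 0.8), with overlapping libraries. In shares of counts, which weight longer messages more, Lama2 took 35.9%, 35.4% and 34.2% in siMettl3 cells, against 36.4%, 36.1% and 38.9% in siNC cells. These do not overlap, and the difference in means was -1.97 points (exact permutation test, p = 0.1, and 0.2 adjusted over the 6 count shares).

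**Figure D2:**
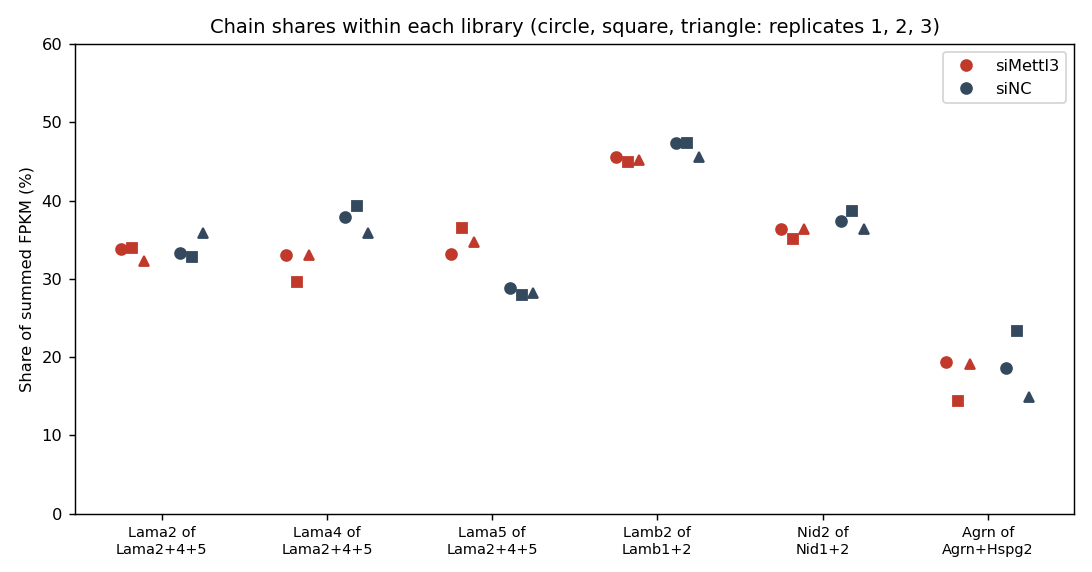
Share (%) of a member in the summed FPKM of its class in each library (points; siMettl3 left of siNC; circle, square and triangle are replicates 1, 2 and 3), for the 6 shares tested. Of these FPKM shares, those of Lama4 and Lama5 separate the groups, Lama4 lower and Lama5 higher in siMettl3 cells, at an exact p of 0.1 each.

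The beta and gamma chains, the common scaffold of the trimers, did not pass the test. Lamb1 (chromosome 6, 50528823 to 50596079, plus strand) had 83.6, 91.7 and 88.2 FPKM in siMettl3 cells, against 93.4, 81.6 and 95.01 FPKM in siNC cells. Lamb2 (chromosome 8, 117268337 to 117280517, plus strand), the beta chain of synapses and mature vessels, had 70.1, 74.7 and 72.6 FPKM in siMettl3 cells, against 84.1, 73.2 and 79.4 FPKM in siNC cells. Both overlap between groups, in each case through a low siNC replicate 2. Their log2 fold changes were -0.11 ± 0.0719 for Lamb1 and -0.20 ± 0.0621 for Lamb2 (SE; edgeR, adjusted p = 0.362 and 0.0906). DESeq2 placed Lamb2 just past the threshold (adjusted p = 0.0487). The Lamb2 share of both beta chains averaged 45.2% in siMettl3 cells and 46.7% in siNC cells (exact permutation test, p = 0.2).

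Lamc1, the gamma chain that carries the nidogen-binding site (chromosome 13, 70658707 to 70783515, minus strand), had 221, 254 and 221 FPKM in siMettl3 cells, against 213, 184 and 230.5 FPKM in siNC cells. The groups overlap, and siMettl3 replicate 2 and siNC replicate 2 are the extremes. Lamc1 had a log2 fold change of 0.073 ± 0.0972 (SE; edgeR, adjusted p = 0.666), with a 95% interval of -0.12 to 0.26.

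Relative to Lamc1 within each library, the nidogens, the beta chains and the alpha chains were lower in siMettl3 cells, and the proteoglycans overlapped. These ratios were chosen after the values had been seen and were not tested. The summed nidogen FPKM was 0.534, 0.501 and 0.553 of Lamc1 in siMettl3 cells, against 0.769, 0.845 and 0.745 in siNC cells. The summed beta chains were 0.696, 0.656 and 0.728 of Lamc1 in siMettl3 cells, against 0.832, 0.843 and 0.757 in siNC cells. The summed alpha chains were 0.556, 0.578 and 0.564 in siMettl3 cells, against 0.600, 0.604 and 0.607 in siNC cells. These 3 ratios separate the groups, and that of the nidogens is the widest apart. Before division by Lamc1, the summed alpha chains and the summed beta chains overlapped between the groups, and the summed nidogens did not. The mean of Lamc1 itself in siMettl3 cells was 110.8% of that in siNC cells. The summed proteoglycans were 0.587, 0.794 and 0.660 of Lamc1 in siMettl3 cells, against 0.629, 0.509 and 0.708 in siNC cells.

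The proteoglycans gave no call. Hspg2 (chromosome 5, 155812105 to 155885829, plus strand) had 105, 172 and 118 FPKM in siMettl3 cells, against 109, 71.7 and 139 FPKM in siNC cells. The groups overlap, and the replicates numbered 2 are the highest library in siMettl3 cells and the lowest in siNC cells. Hspg2 had a log2 fold change of 0.23 ± 0.265 (SE; edgeR, adjusted p = 0.615), with a 95% interval of -0.29 to 0.75. Without replicate 2 of both groups it was -0.23 (edgeR, adjusted p = 0.370).

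Agrn (chromosome 5, 173589819 to 173622645, minus strand), which clusters acetylcholine receptors at the neuromuscular junction, had 25.1, 29.0 and 27.9 FPKM in siMettl3 cells, against 24.9, 21.8 and 24.3 FPKM in siNC cells. The groups do not overlap, by a narrow gap. Agrn had a log2 fold change of 0.13 ± 0.0738 (SE; edgeR, adjusted p = 0.289), with a 95% interval of -0.011 to 0.28. Agrn took 19.4%, 14.4% and 19.1% of the summed Agrn and Hspg2 FPKM in siMettl3 cells, against 18.6%, 23.3% and 14.9% in siNC cells, overlapping shares (exact permutation test, p = 0.9).

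All 10 members are long messages, of 4.69 kb (Nid2) to 11.6 kb (Lama5) by the ratio of counts to FPKM, and the libraries differed by gene length. Over the 1733 tested genes of that length range, the median deviation from a gene's mean was 0.011, 0.17 and -0.016 (log2) in siMettl3 replicates 1, 2 and 3, against -0.061, -0.15 and 0.068 in siNC replicates 1, 2 and 3. The replicates numbered 2 are thus the ones that stand apart. The median log2 fold change of these genes was 0.11, against 0.0025 for all genes tested. It was -0.11 for genes under 1 kb and 0.18 for genes of 8 to 12 kb.

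When each library's trend with length was removed by offsets, a fit added after seeing the data, 6 members were lower (Lama2, Lama4, Lamb1, Lamb2, Nid1 and Nid2) and 0 higher, beside 16.4% of all genes, 10.4% lower and 6.05% higher. Log2 fold changes were then -0.55 for Nid1, -0.61 for Nid2, -0.36 for Lama4, -0.29 for Lamb2, -0.21 for Lama2 and -0.20 for Lamb1 (edgeR, adjusted p = 0.000523, 0.000523, 0.00270, 0.0182, 0.0112 and 0.0305). Lama5 was at 0.083 (adjusted p = 0.324), Agrn at -0.0056, Lamc1 at -0.023 and Hspg2 at 0.10. The median over the members was -0.20. Without replicate 2 of both groups, 3 members were lower (Lama4, Nid1 and Nid2) and 0 higher, beside 4.33% of all genes, 3.22% lower and 1.11% higher. The nidogens and Lama4 were therefore lower in these 2 fits as in the fit to the counts alone, whereas the positive values of Lama5 and Agrn shrank with the offsets.

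**Figure D3:**
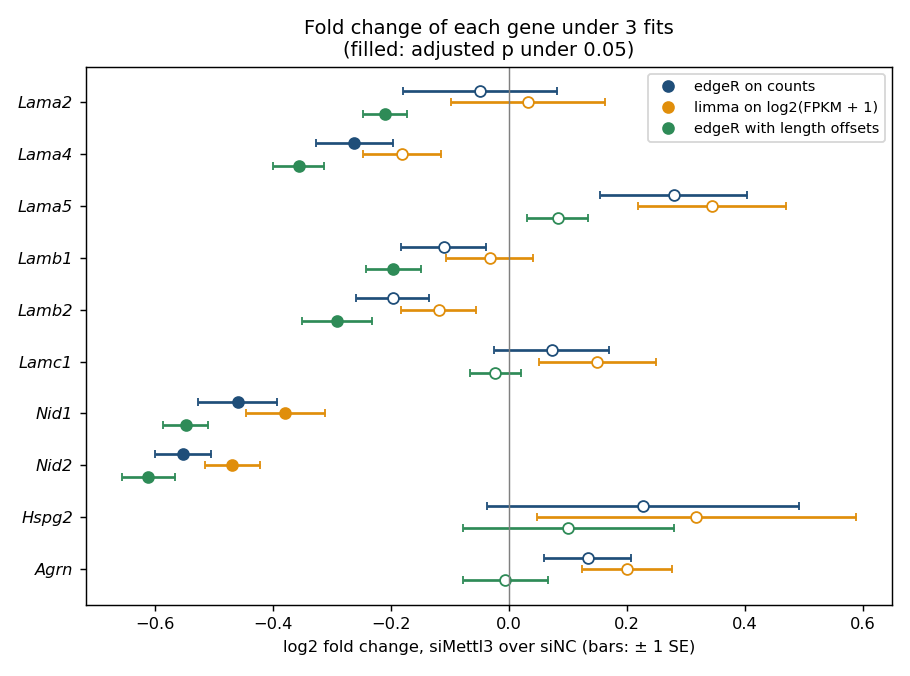
Log2 fold change (siMettl3 over siNC) of each member (points; bars are 1 SE to each side; filled where the adjusted p is under 0.05) in edgeR on the counts, limma on log2(FPKM + 1) and edgeR with length offsets. Nid1, Nid2 and Lama4 lie below 0 in each fit, and Lama5 is at 0.28 in edgeR on the counts and at 0.083 with the offsets.

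**Figure D4:**
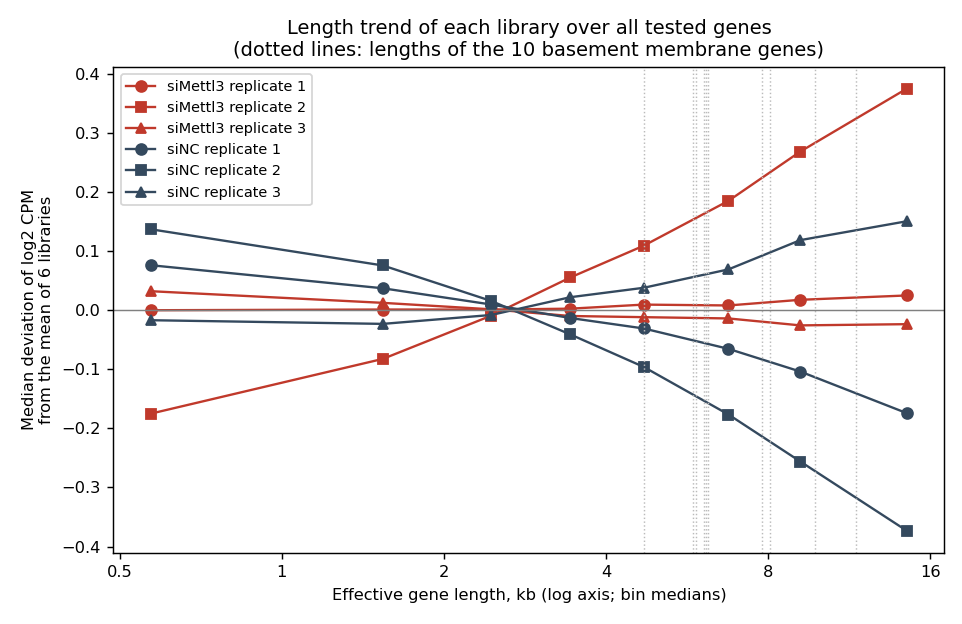
Median deviation of log2 CPM (counts per library total) from a gene's mean over the 6 libraries, for each library, by bins of gene length (kb, log axis) over the 13105 tested genes; dotted lines are the lengths of the members. The siMettl3 replicate 2 line goes up and the siNC replicate 2 line goes down with length, and the members lie in the range of 4.69 to 11.6 kb.

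Other laminin chains and netrins, 10 listed genes, had 4 tested, of which 2 were lower and 0 higher (edgeR). Of all genes tested, 6.59% were lower and 3.39% higher. Lamb3, a beta chain of epithelial laminin, had 24.2, 24.0 and 23.0 FPKM in siMettl3 cells, against 29.0, 28.2 and 28.7 FPKM in siNC cells (log2 fold change -0.35; edgeR, adjusted p = 0.00827). Both groups are tight and do not overlap, and Lamb3 passed in each fit that left out 1 library. Ntn1, a netrin, was at 0.33 (adjusted p = 0.197). Lama3 was not analysed here. Lama1 and Lamc3 were under 1 FPKM on average.

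Of 8 basement membrane collagens, 1 was lower and 1 higher (edgeR), beside 6.59% and 3.39% of all genes tested. Their median log2 fold change was 0.038. Col4a1, a main chain of collagen IV, averaged 459 ± 15.5 FPKM in siMettl3 cells and 524 ± 34.4 FPKM in siNC cells (SD, n = 3 each), a log2 fold change of -0.27 (edgeR, adjusted p = 0.0487; limma, adjusted p = 0.123). Col4a2, encoded beside it, was at -0.28 (edgeR, adjusted p = 0.0715). Col18a1, which carries heparan sulfate and holds endostatin, averaged 105 ± 6.67 FPKM in siMettl3 cells and 75.1 ± 4.13 FPKM in siNC cells, and rose by 0.41 (edgeR, adjusted p = 0.0134; limma, adjusted p = 0.0122). Without 1 library at a time, Col18a1 passed in 5 of 6 fits and Col4a1 in none.

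Of 16 other basement membrane and linker proteins, 8 fell and 0 rose (edgeR), beside 6.59% and 3.39% of all genes tested, with a median log2 fold change of -0.41. Limma gave 6 lower and 0 higher, and leaving out 1 library gave 4 to 7 lower. The members and lists were chosen with earlier results of these data known. A count above the share of all genes is therefore no independent evidence. Fbln2, fibulin 2, which binds nidogen and laminin, averaged 23.5 ± 1.89 FPKM in siMettl3 cells and 51.6 ± 1.15 FPKM in siNC cells (SD, n = 3 each), at -1.21 (edgeR, adjusted p = 0.000847). Egflam, pikachurin, a dystroglycan ligand, was at -1.0 and Ecm1, a perlecan-binding matrix protein, at -0.39 (edgeR, adjusted p = 0.00526 and 0.00860). Loxl2, Sparc, Fbln1, Smoc1 and Npnt were the other 5 that fell.

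Enzymes that cut basement membrane and their inhibitors fell in 7 of 15 tested and rose in 0 (edgeR), beside 6.59% and 3.39% of all genes. By limma 4 fell and 0 rose, beside 4.4% and 6.53% of all genes, and 2 to 6 were lower in edgeR when 1 library was left out. Mmp2, a gelatinase that cuts collagen IV and laminin, averaged 92.7 ± 6.84 FPKM in siMettl3 cells and 142 ± 0.579 FPKM in siNC cells (SD, n = 3 each), at a log2 fold change of -0.69, and Ctss, cathepsin S, at -1.47 (edgeR, adjusted p = 0.00258 and 0.0129). Ctss was low, at a mean of 1.47 FPKM in siMettl3 cells and 3.88 FPKM in siNC cells. Mmp14, Timp3, Tll1 and Timp2 also fell. The list holds proteases and their inhibitors, and both kinds were among the genes that fell.

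Receptors and the dystroglycan link gave 0 or 1 call per list in each direction. These counts are near the shares of all genes tested, 6.59% lower and 3.39% higher (edgeR). Of 15 integrins and other laminin receptors tested, 1 was lower, the syndecan Sdc2 at -0.33 (edgeR, adjusted p = 0.0286), and 0 higher. Bcam, a receptor of the Lama5 chain, was at -0.20 and Itga6, a laminin-binding integrin, at 0.27 (edgeR, adjusted p = 0.0501 and 0.0513). Of 15 genes of the dystroglycan and dystrophin complex, 1 was lower, the dystrobrevin Dtnb at -0.39, and 0 higher (edgeR, adjusted p = 0.0418). Sgce was at -0.25 (adjusted p = 0.0742). Limma called 0 lower and 1 higher in each of these 2 lists, beside 4.4% lower and 6.53% higher of all genes. Among the receptors the higher gene was Itga6 (limma, adjusted p = 0.0328). Of 16 enzymes that glycosylate dystroglycan, 0 were lower and 1 was higher, Pomk at 0.27 (edgeR, adjusted p = 0.0485). The single calls for Sdc2, Dtnb and Pomk were lost in 4 or more of the 6 fits that left out 1 library.

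Of 4 tested genes of the agrin pathway, 1 was lower and 1 higher (edgeR). Beside this count and those of the next 2 lists, 6.59% of all genes tested were lower and 3.39% higher. Prss12, neurotrypsin, which cleaves agrin, was at -0.88 and Rapsn, rapsyn, which anchors acetylcholine receptors, at 0.47 (adjusted p = 0.0299 and 0.0430). Dok7 was at -0.16 (adjusted p = 0.507), and Musk was below the expression filter. Of 19 enzymes of heparan sulfate synthesis and editing, 1 was lower, the sulfatase Sulf1 at -0.42 (edgeR, adjusted p = 0.0351), and 0 were higher, while Ext1 was at -0.17 and Ndst2 at 0.34 (adjusted p = 0.0630 and 0.0715). Of 8 other heparan sulfate core proteins, 2 were lower and 2 higher. The glypicans Gpc3 and Gpc4 were at log2 fold changes of -0.85 and -0.40, and the glypican Gpc2 and the TGF-beta co-receptor Tgfbr3 at 0.99 and 0.60 (edgeR, adjusted p = 0.00371, 0.00943, 0.00808 and 0.0200). Prss12, Rapsn, Sulf1 and Tgfbr3 each lost the call in 4 or more of the 6 fits that left out 1 library. With length offsets, a fit added after seeing the data, 10.4% of all genes tested were lower and 6.05% higher. Beside this, 11 of 16 linker proteins and 10 of 15 degrading enzymes or inhibitors were lower and 0 higher. Of 15 receptors, 4 were lower and 1 higher in that fit.

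**Figure D5:**
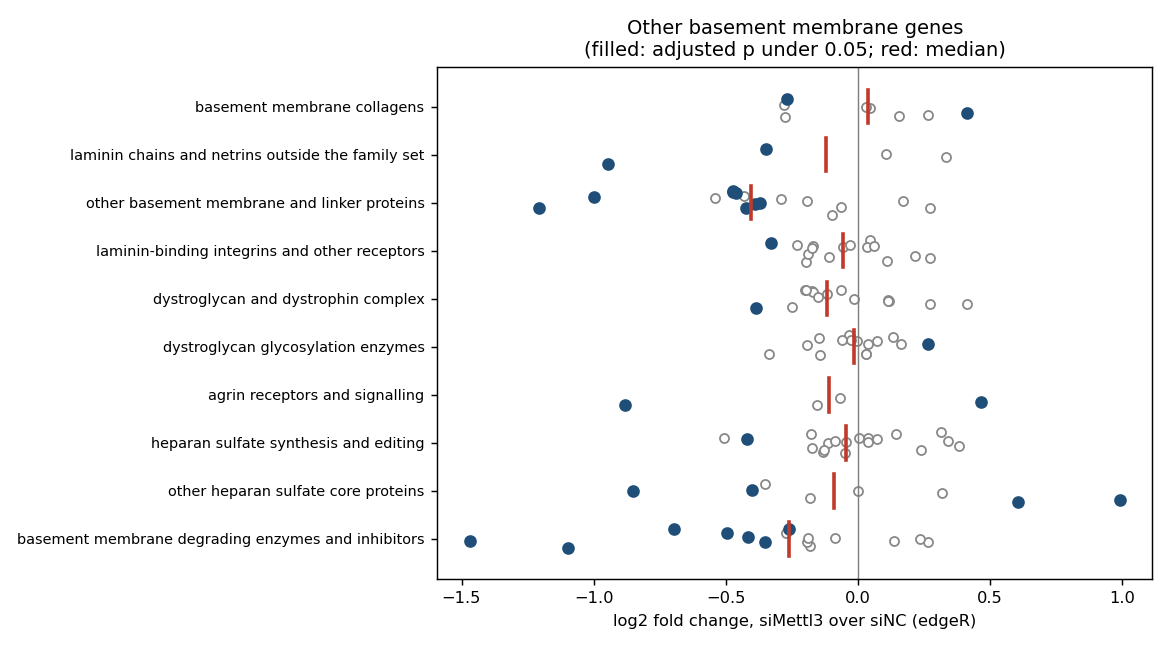
Log2 fold change (siMettl3 over siNC, edgeR) of each tested gene (points, filled where the adjusted p is under 0.05) in the 10 lists of basement membrane genes, with the median as a red line. Linker proteins and degrading enzymes lie mostly below 0, and receptors, dystroglycan enzymes and heparan sulfate enzymes lie around 0.

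Markers of several other cell types were lower in siMettl3 cells. Beside the counts that follow, 6.59% of all genes tested were lower and 3.39% higher (edgeR). Fibroblasts and cells of the vessel wall are known to make nidogens, Lama4 and several of the linker proteins. Of 11 fibroblast markers tested, 8 were lower and 0 higher (edgeR), with a summed 920 to 981 FPKM in siMettl3 cells and 1482 to 1556 FPKM in siNC cells, led by Col1a1, Col3a1 and Postn. Of 12 macrophage markers listed, 7 were tested, and these 7 were lower (6 by limma). The others, C1qc, Ptprc, Mrc1, Cd163 and Aif1, were below the expression filter. The macrophage list summed to 41.2 to 53.9 FPKM in siMettl3 cells and 79.5 to 97.4 FPKM in siNC cells, led by Lyz2, Cd68 and Cd14. Of 12 markers of smooth muscle cells and pericytes, 4 were lower and 0 higher, with a median log2 fold change of -0.098. They summed to 2694 to 2901 FPKM in siMettl3 cells and 3897 to 4395 FPKM in siNC cells, led by Acta2, Tagln and Cnn1. The summed levels of these 3 lists do not overlap between the groups. Leaving out 1 library gave 3 to 6 lower fibroblast markers, 5 to 6 lower macrophage markers and 3 to 4 lower smooth muscle and pericyte markers.

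Of 11 cardiomyocyte markers, 3 were lower and 0 higher (edgeR), but none by limma, with a summed 21561 to 25298 FPKM in siMettl3 cells and 25622 to 29966 FPKM in siNC cells, which do not overlap. Leaving out 1 library gave 0 to 3 lower. Of 6 endothelial markers tested, 1 was lower and 2 higher, with a summed 25.6 to 26.7 FPKM in siMettl3 cells and 24.3 to 26.3 FPKM in siNC cells, led by Kdr, Flt1 and Egfl7. Of 8 epicardial and mesothelial markers, led by Krt18, Upk1b and Krt19, 2 were lower and 1 higher, with a summed 44.9 to 53.1 FPKM in siMettl3 cells and 48.0 to 51.8 FPKM in siNC cells. Of 3 Schwann cell markers, led by Egr2, Mbp and S100b, 0 passed in either direction. Their list summed to 8.86 to 10.2 FPKM in siMettl3 cells and 8.31 to 8.59 FPKM in siNC cells. These low sums do not overlap either, with siMettl3 above siNC. No marker of these lists was at 0 in all libraries. The part of these cell types in the lower nidogen and Lama4 values was not tested.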

How the data were processed

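The study sequenced RNA of 6 libraries of LPS-treated rat myocardial cells, 3 siMettl3 and 3 siNC, grouped by the treatment label. Per the file headers, the deposited table holds for each library a count, a whole number without normalization, and an FPKM value computed by the authors. An FPKM of 0.0001 stands where the count is 0. Where all 6 libraries had 20 counts or more (14527 genes), the ratio of count to FPKM times library total was constant to within 1% in 98.7% of values. This ratio does not tell whether the FPKM values were computed from the counts or the counts derive from coverage. The submitters' processing notes name Bowtie 0.12.2 and build mm8 with no role; the table lists rat genes, and aligner, quantifier, build and strand are not given in the sources used here. Counts between replicates differed by a chi-square per degree of freedom of 25.7 to 76.9, so no library was a copy, and the spread between libraries, more than counting error, limits the precision at this depth.

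The test took the 13105 genes whose 6 libraries average 1 FPKM or more; these were compared as siMettl3 over siNC with edgeR 4.0.16 (quasi-likelihood, TMM factors, two-sided, Benjamini-Hochberg at 0.05) in R 4.3.3, without a replicate block. Limma 3.58.1 on log2(FPKM + 1), which understates changes of low genes, and DESeq2 1.42.0 were run beside it. Adjusted p-values are over all genes tested; an SE is the fit's, and an SD is over 3 libraries. Shares were compared with exact permutation tests (SciPy 1.17.1). Gene length is count over FPKM and library total. The fits were tested on simulated counts with the same dispersion for all genes and no trend with length. That test does not show how the fits perform under the length trends of these libraries. All 10 members are named; of each list, the 3 tested genes with the smallest adjusted p and any others where 5 or fewer passed in a direction. Some genes that this rule names are not reported here. Where more than 5 passed, others that passed are named too, which was decided after their values were seen. The members and lists were chosen with earlier results of these data known.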

Additional observations from a re-analysis of the deposited data

How the results depend on the processing

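The count of genes past the threshold was 1308 in edgeR. It was 2394 with DESeq2, 2150 with length offsets, 567 without replicate 2 of both groups (both fits that concern length were chosen after seeing the data) and 344 to 1066 when 1 library was left out. The 3 members that were lower became 6 with length offsets and 1 to 3 when 1 library was left out. Nid2 alone passed without siMettl3 replicate 1. Mettl3 passed in all 6 leave-one-out fits and all 10 other fits.

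Deviations of same-numbered libraries correlated at 0.026, -0.21 and -0.024, and not every library correlated best with its own number. With 3 libraries per group, and opposite length trends in the replicates numbered 2, these correlations cannot exclude a batch shared by number. With the replicate block as a term 64 genes passed and 0 members, with adjusted p-values (edgeR) of 0.055 for Nid2 and 0.0974 for Nid1.

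Members without a call changed sign in some fits. Lama2 (-0.049) was at 0.032 and 0.033 by limma with pseudocounts of 1 and 0.1 and at -0.16 to 0.076 without 1 library. Lamc1 (0.073) was at -0.023 with length offsets, -0.076 without replicate 2 of both groups and -0.013 to 0.15 without 1 library. Hspg2 (0.23) was at -0.23 without replicate 2 of both groups and -0.011 to 0.46 without 1 library, and Agrn (0.13) at -0.0056 with length offsets. The Lama2 share (-0.61 points) differed by -1.97 points in counts and by -1.22 to 0.34 points without 1 library, and the Agrn share by -3.30 to 0.93 points without 1 library. Lama4 missed 0.05 with median-ratio factors, no filter or a filter of 5 FPKM (edgeR) and with limma.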
